A study of Homo sapiens with 6 samples.

Results

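The expression of 10 genes of the NF-kappaB pathway was examined in LoVo cells, a human colorectal cancer line, after knockdown of the splicing factor SRSF11. The genes are IKBKG, its pseudogene IKBKGP1, the kinases CHUK and IKBKB, the transcription factor subunits NFKB1, NFKB2, RELA and RELB, and the inhibitors NFKBIA and TNFAIP3. They were found by gene name among the 58735 genes of the count table, and all 10 were present. IKBKG was chosen by its fall in the comparison described here, IKBKGP1 for its likeness to IKBKG, and the other 8 for their roles in the pathway. The values of IKBKG and IKBKGP1 are therefore given as a description with no test. The other 8 were also picked with earlier results of these data known, so their calls do not come from a blind choice.

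NF-kappaB is a family of dimeric transcription factors that wait in the cytoplasm, bound to inhibitors of the IkappaB family. Receptors of the TNF, interleukin-1 and Toll-like families activate the IkappaB kinase (IKK) complex, which marks IkappaB for destruction and frees dimers such as p50 with RELA. A second route runs from receptors such as LTBR and TNFRSF12A through the kinase MAP3K14 (NIK) to CHUK, which triggers the processing of the NFKB2 product p100 and frees p52 with RELB. In intestinal epithelium the pathway is known for its part in inflammation, barrier defence and cell survival, and several of its own genes, among them NFKBIA, TNFAIP3, NFKB2 and RELB, are known targets of the factor.

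Transfection was with si-NC, a negative control siRNA (3 libraries), or with si-SRSF11, which targets SRSF11 (3 libraries), with no other treatment in the labels, and poly(A) RNA was sequenced. Which of the study's SRSF11 siRNAs was used is not given in the sources used here. The study calls its RNA samples independent, while the labels do not say that replicates came from separate cultures. The p-values therefore measure the spread between these samples, which may be technical. Library totals ranged from 14369525 to 15514404 counts in si-NC and from 15688702 to 16685719 in si-SRSF11. SRSF11 itself had 1271, 1281 and 1363 counts in si-NC and 789, 789 and 807 in si-SRSF11, a log2 fold change of -0.81 (SE 0.054, adjusted p = 6.1e-10, edgeR). The fold changes below are log2 values of si-SRSF11 over si-NC from edgeR's quasi-likelihood fit, with a standard error (SE), and a gene is called when its p is under 0.05 after Benjamini-Hochberg adjustment across the 15801 genes tested. By that rule 24.6% of all tested genes were called, 13.2% higher and 11.4% lower, and at an absolute log2 fold change over 1 as well 1.09% were called. CPM are counts relative to the library size as scaled by TMM (trimmed mean of M values), multiplied by 1000000. Messenger RNA levels in a cell population cannot tell fewer expressing cells from less RNA per cell.

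Of the 8 genes chosen for their roles, 4 fell and none rose, beside 11.4% of all tested genes called lower. NFKB2, RELB, TNFAIP3 and IKBKB fell, and CHUK, NFKB1, RELA and NFKBIA did not pass the test. In 5 of the 8 the groups did not overlap, beside 38.8% of all tested genes. The median log2 fold change of the 8 was -0.16, beside 0.0015 over all tested genes. None of the 8 passed the absolute log2 fold change of 1. At an unadjusted p under 0.05, 0 of the 8 were higher in edgeR, and DESeq2 and limma voom called 0 higher as well. The same 3 counts were 0 for the lists of subunits, IkappaB proteins and ubiquitin-editing inhibitors, and 2, 0 and 0 for the adaptors. They were 3, 2 and 2 for the kinases, 3, 2 and 3 for the receptors, 2, 1 and 2 for the ligands, and 10, 3 and 8 for the textbook targets. The share of all tested genes higher at the unadjusted threshold is not given here.

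**Figure D1:**
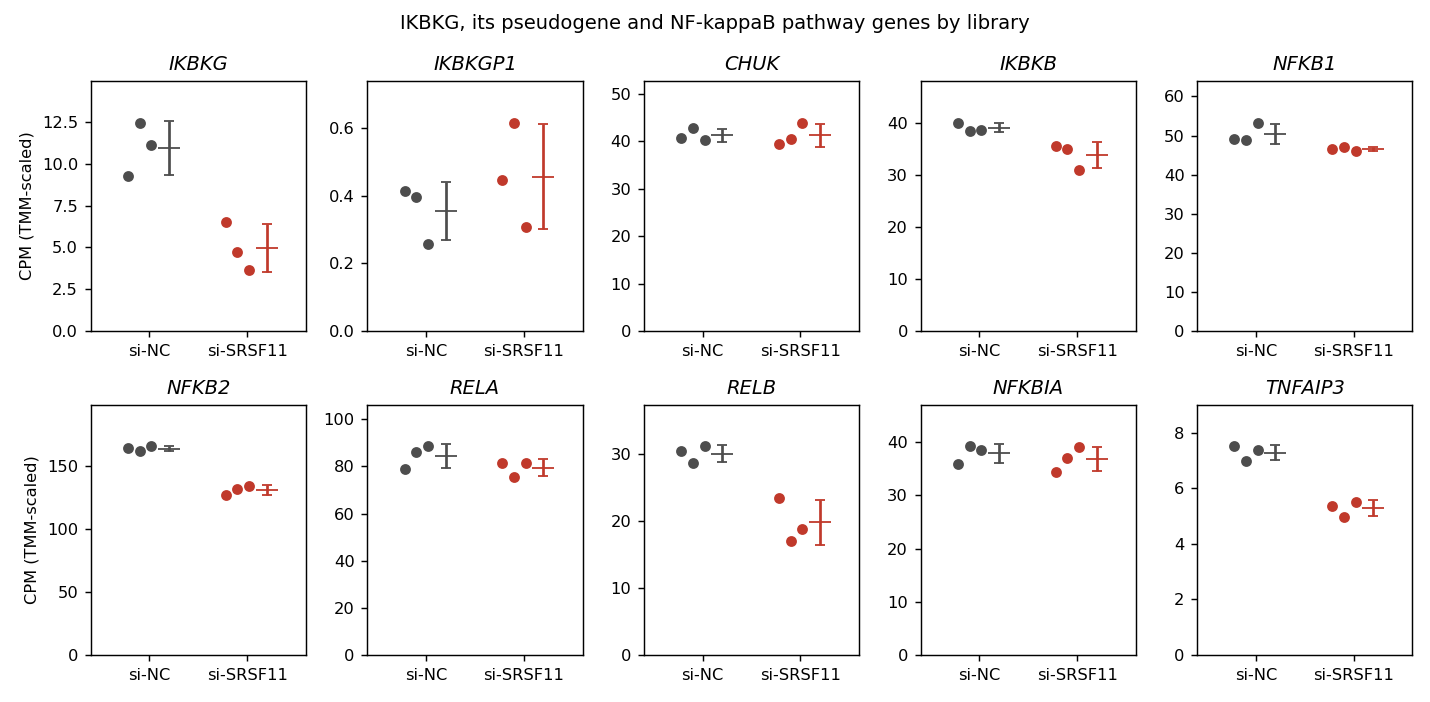
TMM-scaled CPM of the 10 genes in each library, with the mean and SD of each group (n = 3) as a bar beside the points; each vertical axis starts at 0. The si-SRSF11 points of IKBKG, IKBKB, NFKB1, NFKB2, RELB and TNFAIP3 all lie below the si-NC points, and those of CHUK, RELA, NFKBIA and IKBKGP1 overlap them.

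IKBKG encodes NEMO, the regulatory subunit of the IKK complex, which binds ubiquitin chains and holds the catalytic subunits. The gene (ENSG00000269335) lies on the plus strand at chrX:154541199-154565046 (GRCh38), and IKBKGP1 (ENSG00000275882), an unprocessed pseudogene, lies on the minus strand at chrX:154639978-154648275. The longest annotated IKBKG transcript (ENST00000594239.5, GENCODE 29) has 2299 nt in 10 exons. The 1073 nt of the IKBKGP1 transcript, in 8 exons, equal positions 640 to 1712 of it with 0 mismatches. The identical stretch starts in the last 2 bases of exon 2, and exons 3 to 9 lie wholly within it. It takes in 85.3% of the coding bases and leaves the last 587 nt outside. Only annotated transcripts were compared, so whether those 587 nt have a copy elsewhere in the genome was not examined. The start of the shared stretch is printed below, IKBKG from position 613 to 702 and IKBKGP1 from its first base, 5′ to 3′, with the shared bases in capitals.
IKBKG: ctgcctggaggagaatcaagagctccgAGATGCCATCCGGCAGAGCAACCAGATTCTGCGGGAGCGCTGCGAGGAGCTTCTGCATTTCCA
IKBKGP1: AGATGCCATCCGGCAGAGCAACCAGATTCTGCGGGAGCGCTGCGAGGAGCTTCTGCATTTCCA

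Counts on IKBKG were 134, 189 and 173 in si-NC replicates 1, 2 and 3, and 102, 77 and 60 in si-SRSF11 replicates 1, 2 and 3. The groups did not overlap. The mean CPM was 10.9 ± 1.61 in si-NC against 4.98 ± 1.44 in si-SRSF11 (SD, n = 3 each), which is 45.6% of the si-NC level, and the fitted log2 fold change was -1.14 (SE 0.17). Among protein-coding genes with a mean log2 CPM of at least 2 and no overlap between the groups, it ranked 2 of the 8 largest falls, those with a log2 fold change under -1, which is the property it was chosen by.

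Counts on IKBKGP1 were 6, 6 and 4 in si-NC and 7, 10 and 5 in si-SRSF11, too few to enter the fit, and the groups overlapped. The pseudogene took 4.29%, 3.08% and 2.26% of the reads counted on the pair in si-NC replicates 1, 2 and 3. In si-SRSF11 replicates 1, 2 and 3 it took 6.42%, 11.5% and 7.69%. Most of these reads lie on IKBKG, which was chosen by its fall. A higher share in si-SRSF11 therefore follows from that choice and is no result about the pseudogene. With the counts of the pair added in each library, the sums were 140, 195 and 177 in si-NC and 109, 87 and 65 in si-SRSF11. The log2 fold change of the sum was -1.06. Since IKBKGP1 had at most 10 counts, adding them could not have closed the gap between the groups, and the sum holds no reads that the counting dropped. Of the 3529 bases in the union of IKBKG exons, 30.4% have the sequence of the annotated pseudogene transcript, and copies beyond it were not examined. How reads that match gene and pseudogene alike were assigned is not given in the sources used here. The values of IKBKG are uncertain to an extent that was not measured.

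**Figure D2:**
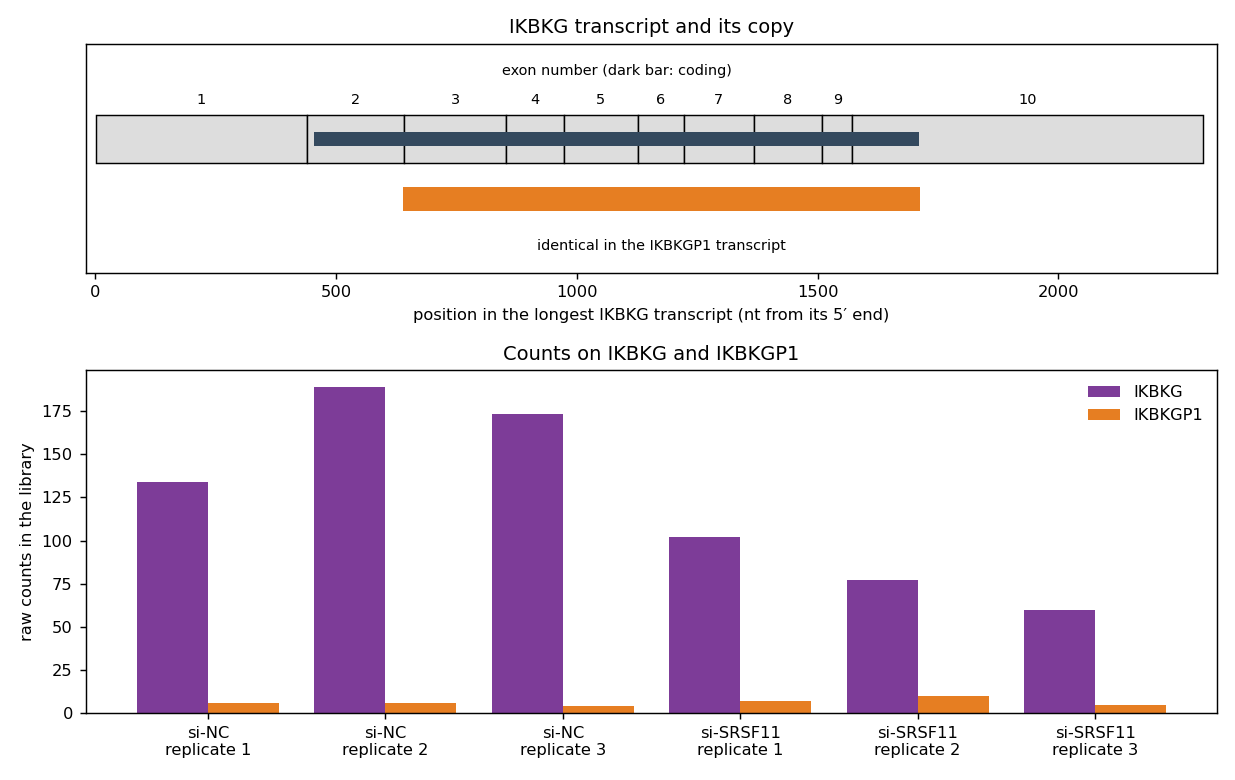
Upper panel: the longest IKBKG transcript in nt from its 5′ end, with its 10 exons as boxes, the coding part as a dark bar and the stretch identical in IKBKGP1 (positions 640 to 1712) in orange. Lower panel: raw counts on IKBKG (134 to 189 in si-NC, 60 to 102 in si-SRSF11) and on IKBKGP1 (4 to 10 over the 6 libraries).

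Genes annotated within 100000 bases of IKBKG or IKBKGP1 were read beside them. PLXNA3, a semaphorin co-receptor, fell by 0.23 (SE 0.054, adjusted p = 0.00372) and FAM50A by 0.18 (SE 0.058, adjusted p = 0.0251) on the log2 scale in edgeR. LAGE3, UBL4A, SLC10A3 and FAM3A did not pass the test, with values from -0.17 to 0.06.

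Of the 2 catalytic subunits of IKK, IKBKB (IKK-beta) fell slightly and CHUK (IKK-alpha) did not pass the test. IKBKB (chr8:42271302-42332653) had 580, 584 and 601 counts in si-NC and 556, 567 and 504 in si-SRSF11, or 39.0 ± 0.865 and 33.8 ± 2.51 CPM (SD, n = 3). In CPM the groups did not overlap, and the log2 fold change was -0.21 (SE 0.071, adjusted p = 0.0351, edgeR). This call depended on which libraries were used. The adjusted p was 0.125, 0.07 and 0.0739 without si-NC replicate 1, 2 or 3, 0.126 without si-SRSF11 replicate 3, and 0.0631 in DESeq2. The call was kept without si-SRSF11 replicate 1 (adjusted p = 0.021) or 2 (adjusted p = 0.0487). CHUK (chr10:100188298-100229619) had 589, 651 and 628 counts in si-NC and 616, 657 and 716 in si-SRSF11. Its means were 41.3 ± 1.38 and 41.2 ± 2.37 CPM (SD, n = 3), and the log2 value was -0.00017 (SE 0.066, adjusted p = 0.999).

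MAP3K14 (NIK), the kinase that activates CHUK on the second route, fell. It had 877, 970 and 895 counts in si-NC and 610, 680 and 668 in si-SRSF11, with no overlap, and a log2 fold change of -0.58 (SE 0.062, adjusted p = 5.3e-07, edgeR). An antisense gene, MAP3K14-AS1, shares 12.3% of its exon bases. TAB1, which binds and activates the kinase MAP3K7 (TAK1), rose by 0.29 (SE 0.066, adjusted p = 0.00244), from 529 to 607 counts in si-NC to 733 to 741 in si-SRSF11. TBK1, a kinase related to IKK that acts in interferon induction, rose by 0.35 (SE 0.092, adjusted p = 0.00678), from 227 to 255 counts to 322 to 341, and 14.7% of its exon bases lie in a gene on the opposite strand. MAP3K7, TAB2, TAB3, IKBKE, MAP3K8 and ERC1 did not pass the test, with values from -0.13 to 0.16. With IKBKG left aside, 2 of 11 genes on the list of the IKK complex and its activating kinases fell and 2 rose (36.4% called, beside 24.6% of all tested genes), with a median of 0.0034.

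Among the 5 subunits, NFKB2 and RELB fell (40.0% called, beside 24.6% of all tested genes). NFKB1, RELA and REL did not pass the test. RELB (chr19:45001430-45038198) had 440, 434 and 484 counts in si-NC and 366, 277 and 306 in si-SRSF11. In CPM it stood at 30.0 ± 1.29 and 19.7 ± 3.29 (SD, n = 3), or 65.8% of the si-NC level, and the log2 fold change was -0.60 (SE 0.097, adjusted p = 8.6e-05, edgeR). The groups did not overlap, and si-SRSF11 replicate 1 lay nearest to si-NC. NFKB2 (chr10:102394110-102402529), which encodes p100 and p52, had 2381, 2467 and 2582 counts in si-NC and 1984, 2140 and 2192 in si-SRSF11. Its CPM were 164 ± 1.72 and 131 ± 3.83 (SD, n = 3), or 79.8% of the si-NC level, and its log2 fold change was -0.32 (SE 0.047, adjusted p = 2.27e-05). The gap between the groups was several times the spread within them.

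NFKB1 (chr4:102501329-102617302), which encodes p105 and p50, had 712, 743 and 830 counts in si-NC and 729, 766 and 753 in si-SRSF11. The CPM did not overlap, at 50.4 ± 2.48 and 46.6 ± 0.477 (SD, n = 3), yet the log2 fold change of -0.11 (SE 0.061) did not pass the test (adjusted p = 0.187). RELA (chr11:65653596-65663094), the transactivating subunit p65, had 1142, 1308 and 1378 counts in si-NC and 1276, 1224 and 1329 in si-SRSF11. The groups overlapped, with a log2 fold change of -0.09 (SE 0.057, adjusted p = 0.277). REL, the subunit best known from lymphocytes, had 77 to 93 counts in si-NC and 70 to 96 in si-SRSF11, a log2 fold change of -0.10 (SE 0.17, adjusted p = 0.708). Other genes share 43.3% of the exon bases of REL. Misses of the threshold do not show that these levels were equal.

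Of the 6 IkappaB family genes, 2 fell and none rose (33.3% called, beside 24.6% of all tested genes), with a median of -0.17. NFKBIA (chr14:35401511-35404749) encodes IkappaB-alpha, the classical inhibitor and an early target of the factor. It had 521, 596 and 600 counts in si-NC and 539, 603 and 637 in si-SRSF11, or 37.9 ± 1.73 and 36.9 ± 2.31 CPM (SD, n = 3). The groups overlapped, and the log2 fold change was -0.04 (SE 0.07, adjusted p = 0.731). NFKBIE, the inhibitor IkappaB-epsilon, fell by 0.39 (SE 0.077, adjusted p = 0.000763, edgeR), from 462, 459 and 495 counts in si-NC to 384, 361 and 406 in si-SRSF11. NFKBIZ, a nuclear IkappaB protein that assists transcription of selected targets, fell by 0.44 (SE 0.11, adjusted p = 0.00474), from 189, 233 and 245 counts to 176, 174 and 172. NFKBIB, NFKBID and BCL3 did not pass the test, with values from -0.19 to -0.15.

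Among the feedback inhibitors that edit ubiquitin chains, 2 of 10 tested genes fell and none rose, with a median of -0.03. That share lay below the 24.6% of all tested genes called, and without si-NC replicate 1 the number called was 0. TNFAIP3 (chr6:137867188-137883312) encodes A20, which takes apart the chains that activate IKK. It had 109, 106 and 115 counts in si-NC and 84, 81 and 90 in si-SRSF11, or 7.29 ± 0.282 and 5.29 ± 0.277 CPM (SD, n = 3). The groups did not overlap, and the log2 fold change was -0.46 (SE 0.14, adjusted p = 0.0214, edgeR). The adjusted p was 0.0739 without si-NC replicate 1, 0.0635 without si-NC replicate 3, 0.0772 without si-SRSF11 replicate 2 and 0.0511 in DESeq2. ITCH, a ubiquitin ligase that works with A20, fell by 0.18 (SE 0.054, adjusted p = 0.019), and its adjusted p was 0.123 without si-NC replicate 1. CYLD, OTULIN, TNIP1, TNIP2, TAX1BP1, RNF11, OTUD7B and N4BP1 did not pass the test, with values from -0.16 to 0.07.

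**Figure D3:**
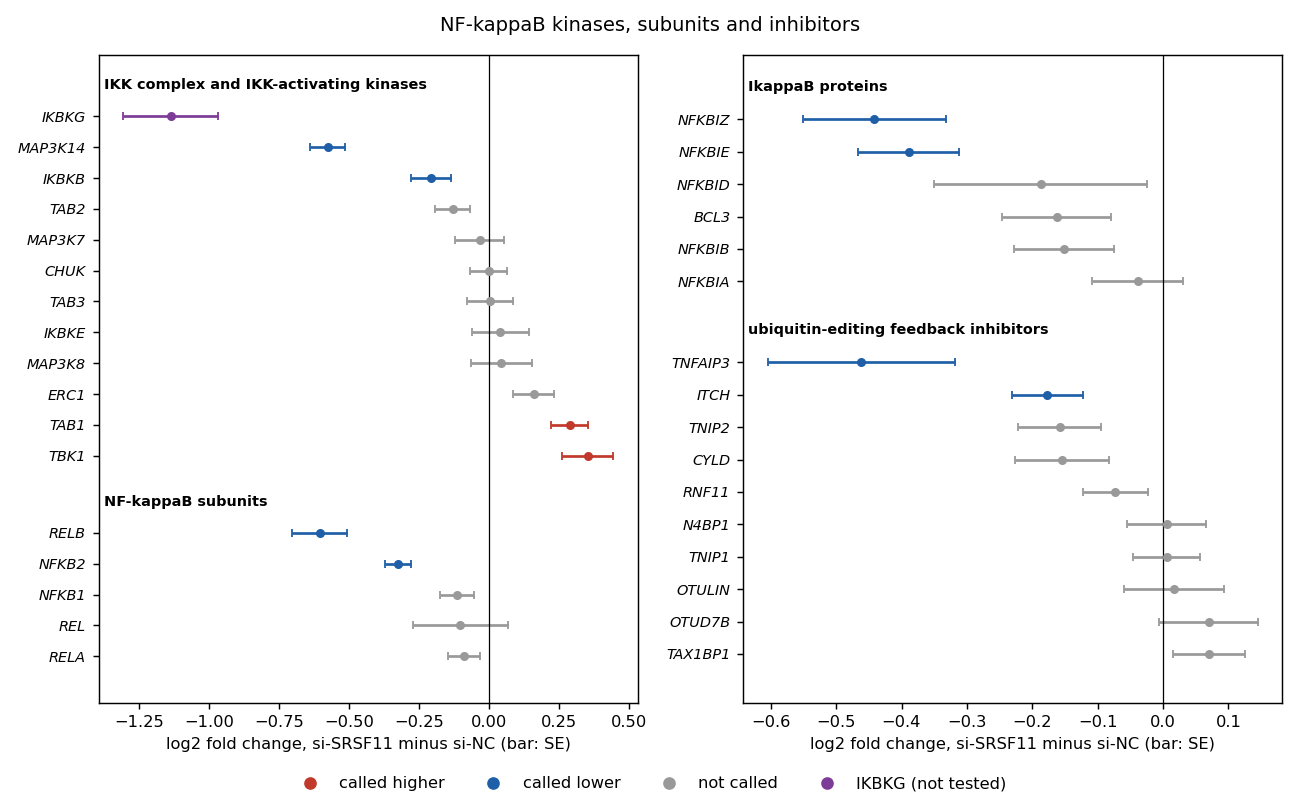
Log2 fold change of si-SRSF11 over si-NC (horizontal axis, edgeR, bar: SE) for each tested gene of the lists of IKK kinases, subunits, IkappaB proteins and ubiquitin-editing inhibitors; blue marks genes called lower, red higher, grey not called, and purple IKBKG, which was not tested. RELB (-0.60) and MAP3K14 (-0.58) lie farthest to the left among the tested genes, and TBK1 (0.35) farthest to the right.

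Promoter sequence was read because several of these genes are targets of the factor they encode or restrain. RefSeq promoters (GRCh38.p14, 250 bases before to 50 after the transcription start) were searched for the kappaB consensus, a motif of 10 bases, on both strands, with overlapping matches allowed. The consensus occurs in 11.3% of all 35116 promoters and in at least 1 promoter of 17.4% of the tested genes with an entry. Of the 10 members 7 had an entry, of which NFKB1, NFKB2, NFKBIA and TNFAIP3 hold a match and IKBKG, CHUK and RELA have none in these windows. Below are a promoter of each of the fallen genes NFKB2 (chr10:102394328-102394627, plus strand) and TNFAIP3 (chr6:137867009-137867308, plus strand), and that of NFKBIA (chr14:35404700-35404999, minus strand), which did not pass the test, 5′ to 3′ with the matches in capitals.
NFKB2: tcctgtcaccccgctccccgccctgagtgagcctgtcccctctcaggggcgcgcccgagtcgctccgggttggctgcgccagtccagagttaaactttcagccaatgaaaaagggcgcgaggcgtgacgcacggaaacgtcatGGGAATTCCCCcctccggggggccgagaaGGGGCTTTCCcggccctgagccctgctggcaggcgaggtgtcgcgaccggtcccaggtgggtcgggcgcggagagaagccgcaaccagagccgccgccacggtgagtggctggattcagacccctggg
TNFAIP3: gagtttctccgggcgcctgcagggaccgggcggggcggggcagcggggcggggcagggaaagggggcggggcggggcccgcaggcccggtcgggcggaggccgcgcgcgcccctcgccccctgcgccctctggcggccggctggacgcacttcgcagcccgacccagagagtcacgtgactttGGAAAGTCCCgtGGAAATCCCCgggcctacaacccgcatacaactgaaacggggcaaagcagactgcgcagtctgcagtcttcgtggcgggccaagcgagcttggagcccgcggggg
NFKBIA: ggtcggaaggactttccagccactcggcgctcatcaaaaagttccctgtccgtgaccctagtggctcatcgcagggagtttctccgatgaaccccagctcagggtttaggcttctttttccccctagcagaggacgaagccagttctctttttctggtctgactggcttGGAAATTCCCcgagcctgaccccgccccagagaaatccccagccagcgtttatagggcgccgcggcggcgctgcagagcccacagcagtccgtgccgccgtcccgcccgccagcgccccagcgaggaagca

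The matches start 107, 106 and 78 bases before the NFKB2 start, where the former pair overlap, 67 and 55 bases before the TNFAIP3 start, and 81 bases before the NFKBIA start. Over all listed pathway genes with an entry, 14 of 18 that fell have a match in at least 1 promoter, 4 of 10 that rose and 21 of 63 that were not called. Counted by promoter, since genes differ in how many they have, the matches are in 18 of 30, 4 of 10 and 25 of 100 promoters. Among all tested genes with an entry, the shares of genes with a match are 20.8% for those called lower, 16.1% for those called higher and 17.1% for those not called. Their shares of promoters are 16.1% for those called lower, 12.7% for those called higher and 13.3% for those not called. The lists were drawn up of genes known as NF-kappaB targets or regulators, so a share above that of all genes may follow from the choice. The difference within the lists, between genes that fell and genes not called, was not tested. It mixes the call with the kind of gene, since the lists differ in the share called. A match is a description of the letters.

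Upstream of IKK, the receptors moved in either direction. TNFRSF12A (FN14), the receptor for TWEAK, had 5648, 5695 and 6371 counts in si-NC and 3511, 3955 and 4280 in si-SRSF11, with no overlap. It fell by 0.68 (SE 0.054, adjusted p = 6.41e-09, edgeR), and it was the most highly counted receptor on the list. LTBR, the lymphotoxin-beta receptor, rose by 0.26 (SE 0.056, adjusted p = 0.00139), from 1614, 1739 and 1900 counts to 2375, 2172 and 2152. EDAR, the ectodysplasin receptor, rose by 0.41 (SE 0.11, adjusted p = 0.00767), from 152 to 168 counts to 217 to 244. The TNF receptors TNFRSF1A, with 0.14 (SE 0.051, adjusted p = 0.0536), and TNFRSF1B, with -0.01 (SE 0.047, adjusted p = 0.912), did not pass the test. In all, 12 of 18 receptors were tested, 1 fell and 2 rose (25.0% called, beside 24.6% of all tested genes), with a median of 0.05.

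Of 12 ligands only 4 had enough counts to be tested, and their median was 0.09. Of these, 1 fell and 2 rose (75.0% called, beside 24.6% of all tested genes). LTB, the ligand of LTBR, had 22, 40 and 33 counts in si-NC and 11, 18 and 18 in si-SRSF11. It fell by 1.10 (SE 0.32, adjusted p = 0.014, edgeR), with an adjusted p of 0.0808 without si-NC replicate 2 and 0.0555 without si-SRSF11 replicate 1. EDA, the ligand of EDAR, rose by 0.44 (SE 0.10, adjusted p = 0.00282), from 173 to 186 counts to 244 to 268. TNFSF12, which encodes TWEAK, rose by 0.34 (SE 0.11, adjusted p = 0.0247), and its adjusted p was 0.0919, 0.0942 and 0.104 without si-NC replicate 1, si-NC replicate 2 or si-SRSF11 replicate 3. Of its exon bases 33.2% lie in other genes, mainly the TNFSF12-TNFSF13 readthrough. IL18 had a value of -0.15 (SE 0.065, adjusted p = 0.0917).

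Between receptor and kinase, 4 of 26 adaptors and ubiquitin ligases fell and none rose, with a median of 0.0091. The 15.4% called lay below the 24.6% of all tested genes, and lower calls were near the 11.4% of all tested genes. RBCK1 (HOIL-1), a subunit of the linear ubiquitin ligase whose chains NEMO binds, had 4763, 4859 and 5308 counts in si-NC and 3742, 3607 and 3856 in si-SRSF11. The groups did not overlap, and it fell by 0.50 (SE 0.048, adjusted p = 9.74e-08, edgeR). The other subunits of that ligase, RNF31 (HOIP) with 0.03 (SE 0.087, adjusted p = 0.864) and SHARPIN with -0.14 (SE 0.055, adjusted p = 0.0751), did not pass the test. Other genes share 39.1% of the exon bases of RNF31. TOLLIP, a restraint on Toll-like receptor signals, fell by 0.20 (SE 0.055, adjusted p = 0.0112), BIRC3 (cIAP2), a ubiquitin ligase and known target of the factor, by 0.48 (SE 0.14, adjusted p = 0.0141), and UBE2V1, which helps to build activating chains, by 0.53 (SE 0.16, adjusted p = 0.0203).

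These 3 calls depend on single libraries. The adjusted p of TOLLIP was 0.055 and 0.0715 without si-NC replicate 1 or 3. That of BIRC3 was 0.0663 without si-NC replicate 3 and 0.0855 without si-SRSF11 replicate 2. For UBE2V1 it was 0.125, 0.0677 and 0.0627 without si-NC replicate 1, si-NC replicate 2 or si-SRSF11 replicate 2, and 42.9% of its exon bases lie in another gene, TMEM189-UBE2V1. IRAK1, the most highly counted adaptor after RBCK1, had a value of -0.10 (SE 0.047, adjusted p = 0.116).

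Of 42 textbook target genes of NF-kappaB, 34 were tested, and 17 of the 34 were called, beside 24.6% of all tested genes. They split into 9 that fell and 8 that rose, with a median log2 fold change of 0.03. Among those that fell, IL32, a cytokine, had 426, 459 and 482 counts in si-NC and 317, 323 and 368 in si-SRSF11, a log2 fold change of -0.53 (SE 0.081, adjusted p = 4.55e-05, edgeR). LAMB3, a laminin chain of the epithelial basement membrane, had 2675, 2680 and 2796 counts and then 2244, 2271 and 2351, a value of -0.34 (SE 0.046, adjusted p = 1.29e-05). SDC4, a cell surface proteoglycan, fell by 0.25 (SE 0.06, adjusted p = 0.0032). In IL32, LAMB3 and SDC4 the CPM of the groups did not overlap.

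ELF3, an epithelial transcription factor, fell by 0.30 (SE 0.077, adjusted p = 0.00585, edgeR), and IER3, an early response gene, by 0.17 (SE 0.05, adjusted p = 0.014). Without si-NC replicate 3 the adjusted p of ELF3 was 0.0656, and that of IER3 was 0.0793, 0.101 and 0.0702 without si-NC replicate 1, si-NC replicate 3 or si-SRSF11 replicate 2. Other genes share 18.5% of the exon bases of ELF3, and an antisense gene shares 26.5% of those of IER3.

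Among the targets that rose, CXCL3, a neutrophil chemokine, had 55, 84 and 77 counts in si-NC and 184, 151 and 136 in si-SRSF11. Its log2 fold change was 1.04 (SE 0.16, adjusted p = 6.65e-05, edgeR), and the groups did not overlap. TNFAIP2 rose by 0.58 (SE 0.13, adjusted p = 0.00229), from 133, 114 and 125 counts to 227, 181 and 184. PTGS2 (COX-2), the inducible enzyme of prostaglandin synthesis, rose by 0.38 (SE 0.11, adjusted p = 0.0105), with an adjusted p of 0.066 without si-NC replicate 3 and 0.0544 without si-SRSF11 replicate 2. BCL2L1, a survival gene and among the most highly counted targets, had a value of 0.0033 (SE 0.047, adjusted p = 0.969), and 43.0% of its exon bases lie under an antisense gene. The number of called targets was 11, 11 and 8 without si-NC replicate 1, 2 or 3, 11, 9 and 12 without si-SRSF11 replicate 1, 2 or 3, and 9 in DESeq2.

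**Figure D4:**
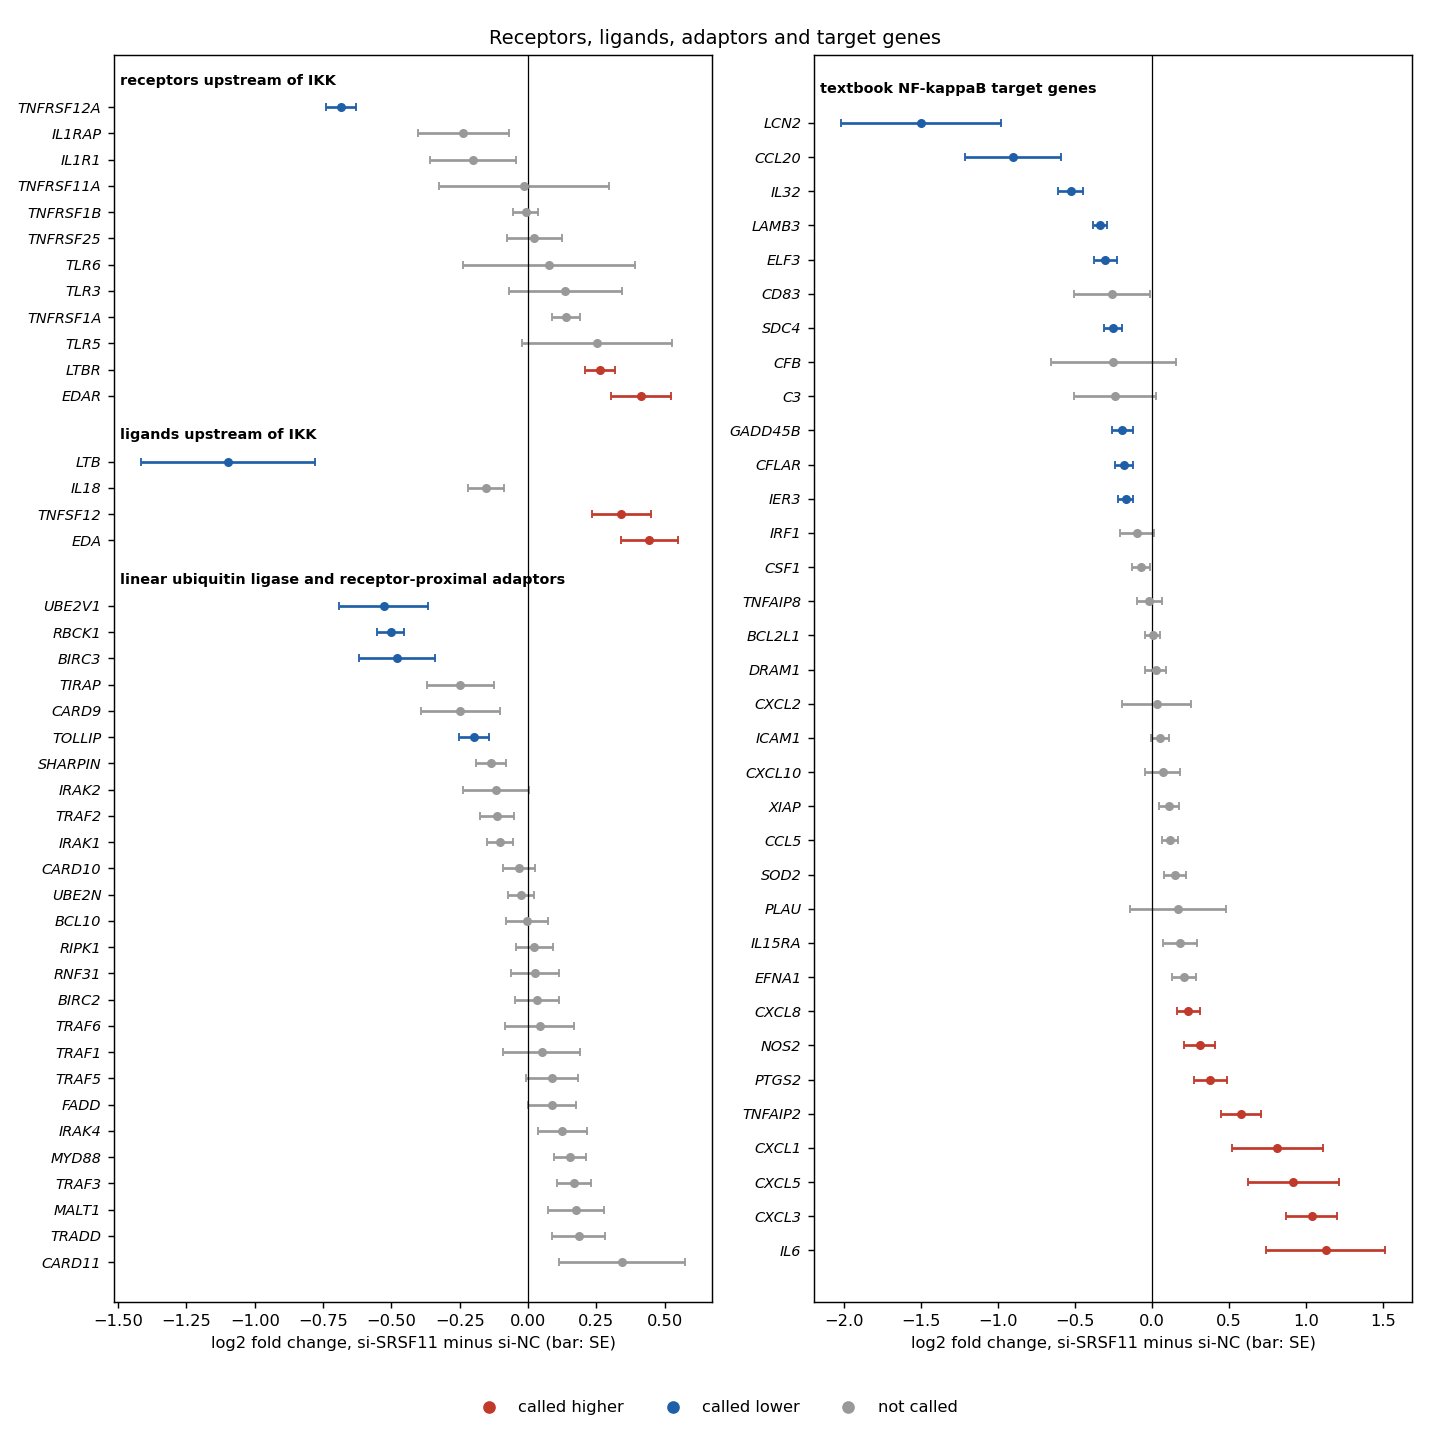
Log2 fold change of si-SRSF11 over si-NC (horizontal axis, edgeR, bar: SE) for each tested receptor, ligand, adaptor and textbook target gene of NF-kappaB; blue marks genes called lower, red higher and grey not called. The called targets lie on either side of 0, 9 lower and 8 higher, and 4 of 26 adaptors are called lower (15.4% called, beside 24.6% of all tested genes).

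Over all lists and the members without IKBKG, 108 of 131 genes were tested, 23 fell and 14 rose, so 34.3% were called beside 24.6% of all tested genes, and the median was -0.0069. Of these 37 calls, 17 held under each of the 15 alternative fits. They were NFKB2, RELB, MAP3K14, TNFRSF12A, RBCK1, NFKBIE, NFKBIZ, IL32, LAMB3 and SDC4 among those that fell, and LTBR, EDA, EDAR, TAB1, TBK1, CXCL3 and TNFAIP2 among those that rose.

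Per kilobase of exon, NFKB2 had the highest level of the members in si-NC, at 36.6 CPM per kb. NFKBIA (15.97) and RELA (15.5) came next and overlapped each other, followed by RELB (9.88), NFKB1 (8.06) and CHUK (5.95). IKBKB (3.47) and IKBKG (3.10) also overlapped, and TNFAIP3 (1.44) and IKBKGP1 (0.331) had the lowest levels. In si-SRSF11 the level per kb was 29.2 for NFKB2, 6.50 for RELB and 1.41 for IKBKG.

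Over the 6 libraries, the genes whose log2 CPM followed that of IKBKG most closely among 10930 protein-coding genes were SNTB1, RAI1, RCE1, LAMP3 and DNMT3B, with Pearson r from 0.990 to 0.995. The r of the members ranged from -0.22 for CHUK and 0.09 for NFKBIA to 0.91 for IKBKB and 0.92 for RELB. These 6 points fall into the 2 groups that chose IKBKG, so the r values describe the same difference between groups.

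Summed by list, markers of other cell types were far below those of colorectal epithelium, but single markers differed. On the epithelial list, KRT20 and CEACAM5 had only 0.70 and 1.07 CPM in si-NC, and 0.82 and 0.83 in si-SRSF11. The fibroblast markers COL1A1 (12.75 CPM in si-NC, 11.74 in si-SRSF11) and PDGFRB (8.89 and 14.46) were not low beside IKBKG. All 10 markers of colorectal epithelium were tested, with a summed level of 6000 to 6360 CPM in si-NC and 6060 to 6490 in si-SRSF11, and 1 of them, CDX2, was called (0.40, SE 0.075, adjusted p = 0.000385, edgeR). Of 7 leukocyte markers PTPRC and MS4A1 had 0 counts in each library, and the list summed to 3.55 to 4.34 CPM in si-NC and 4.60 to 5.23 in si-SRSF11. Fibroblast markers summed to 19.7 to 23.2 and 24.7 to 29 CPM, with DCN at 0 and PDGFRB called higher (0.70, SE 0.12, adjusted p = 0.000234), and endothelial markers to 1.48 to 2.57 and 0.797 to 2.05 CPM, with KDR at 0.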

How the data were processed

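RNA from LoVo cells (3 si-NC and 3 si-SRSF11 samples) was sequenced by the authors on an Illumina NovaSeq platform. The authors deposited raw counts per gene, with no normalization and no filter. The gene spans equal those of GENCODE 29 for 58724 of 58735 genes. The build in the submitters' processing notes is hg38, and the aligner and counting program are not given in the sources used here. No source says that strand was used in counting.

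Samples were grouped by the labels. A figure of the study brackets the library names with the opposite conditions, and SRSF11 counts were lower in the libraries labelled si-SRSF11. Genes reaching 10 counts in 3 or more libraries were scaled by TMM and tested by edgeR's quasi-likelihood test (4.0.16, R 4.3.3) with condition as the only term and Benjamini-Hochberg adjustment over all tested genes. Alternatives were DESeq2 (1.42.0), limma voom (3.58.1), other scalings and filters, a fit of protein-coding genes alone, a replicate block, each library left out in turn, and IKBKG and IKBKGP1 counts added. With 3 samples against 3, an exact permutation test of a single value cannot go below p = 0.10, so none is given. Shared sequence was counted in windows of 100 nt and in exon overlaps.

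The members and gene lists were chosen with earlier results of these data known. The genes named are the members, the tested genes of the kinase, subunit, IkappaB and ubiquitin-editing lists, up to 8 called genes and the 3 most highly counted genes of each other list, tested neighbours of IKBKG, and the 5 genes most correlated with it. RNF31, named as a subunit of the ligase of RBCK1, and the genes named among the markers were added after their values were seen. Some genes that this rule names are not reported here. The promoter sequences come from RefSeq.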

Additional observations from a re-analysis of the deposited data

How the results depend on the processing

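The 3 libraries per condition and the sequence shared with IKBKGP1 limit these results most. NFKB2 and RELB kept their calls under all 15 alternatives. IKBKG ranged from -1.38 to -0.96 under them. Since it was chosen by its fall in these same libraries, its kept direction is a description and no support. In DESeq2 the value of IKBKB was -0.21 (adjusted p = 0.0631) and that of TNFAIP3 -0.47 (adjusted p = 0.0511), so that 2 members were called lower. With each library left out in turn, IKBKB ranged from -0.25 to -0.15 and TNFAIP3 from -0.50 to -0.42, and 2 to 4 members were called lower. The causes were not tested, though such fits have fewer samples. The calls of ubiquitin-editing inhibitors then ranged from 0 to 3, of adaptors from 2 to 6, of ligands from 1 to 3 and of targets from 8 to 12, and over all lists 9 to 13 genes were called higher and 13 to 21 lower.

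DESeq2 called 1 ubiquitin-editing inhibitor, 9 targets and 8 genes higher over all lists. An absolute log2 fold change over 1 as well left 0 members, 0 kinases, 0 subunits, 0 IkappaB genes, 0 ubiquitin-editing inhibitors, 0 adaptors, 0 receptors, 1 ligand and 3 targets called, 2 genes higher and 2 lower over all lists, and 86 higher and 87 lower over all tested genes. No result reversed. The median of all tested genes stayed between -0.033 and 0.0030 under every scaling and filter.

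The study describes its control and knockdown RNA samples as pairs, while the labels do not say that a shared replicate number marks a pair. The deviations of same-numbered libraries correlated weakly, with r of 0.015, 0.036 and 0.040, although each library correlated best with its own number, so the fit without the block was kept. With the replicate block no member's call changed and 4 members were called lower, IKBKG stood at -1.15, 3 IkappaB genes, 6 adaptors and 4 receptors were called, and 2147 of all tested genes were called higher and 1889 lower.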
